A study of Rattus norvegicus with 48 samples.

Results

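The heat shock proteins and their J-domain, CCT and BAG partners were followed in rat kidney across 4 strains and 3 times. The 45 genes are those of 7997 measured genes whose platform symbol starts with Hsp followed by a, b, d, e, h or a digit, with Dnaja, Dnajb or Dnajc, or with Cct or Bag followed by a digit. Dnajb12 matched as well and was left out of the set. By role, 8 belong to the cytosolic HSP70 and HSP110 system, 2 to cytosolic HSP90, 6 to the small heat shock proteins and their binders, 6 to the endoplasmic reticulum, 5 to mitochondria, 4 to the chaperonin CCT and 2 to the BAG co-chaperones. The other 12 are further DnaJ proteins, among them Dnajc14, which was not counted with the endoplasmic reticulum genes. Hspa1a and Hspa1b, the stress-inducible HSP70 genes, are not among the 45, because the array reads them only through probe sets that they share with Hspa1l.

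RNA from kidneys of male rats was read on exon arrays, with 4 arrays for each combination of strain (FL, F, LF and L) and day, 48 in all. Day 7 and day 10 rats of every strain had received I3C (indole-3-carbinol) at 100 mg/kg body weight/day by gavage for 7 or 10 days, and day 0 rats had received the vegetable oil carrier. The labels give 8 rats per group, aged 12 to 14 weeks, and do not say how many rats an array represents. No carrier group at day 7 or 10 was analysed here, so I3C cannot be told apart from the days of gavage. The labels do not expand the strain names. From knowledge outside the labels, I3C switches on a renin transgene under the Cyp1a1 promoter, active mainly in liver, and raises blood pressure in rats that carry it. Without such labels, p-values here measure only the spread between arrays, which may be technical. Markers of kidney segments were bright at day 0 (Umod 12.84 ± 0.08 and Lrp2 11.99 ± 0.07 on the log2 scale, SD, n = 16 arrays). In bulk kidney RNA, fewer cells of a type and less RNA per cell cannot be told apart.

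Chaperones bind unfolded protein and are made in larger amounts when protein damage rises. In the cytosol HSP70 works with a DnaJ partner that delivers the client and stimulates its ATPase, with an HSP110 that exchanges the nucleotide, and with HSP90, which finishes many signalling proteins. The transcription factor HSF1 drives much of this set through repeats of the heat shock element, while the unfolded protein response drives the chaperones of the endoplasmic reticulum through the endoplasmic reticulum stress element. In the kidney, small heat shock proteins such as HSPB1 bind actin filaments, and tubular HSPB1 and HSP70 are known to rise after ischaemic injury.

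Promoters are shown first for 5 genes that recur below, to place the 2 kinds of element beside the levels. RefSeq promoters of build GRCr8, from 250 bases before to 50 bases after the start, were found for 38 of the 45 genes. The heat shock pair was searched on both strands as GAANNTTC or TTCNNGAA, and the triple is a pair with a further unit in phase, so that each triple contains 2 overlapping pairs. The endoplasmic reticulum stress element was searched as CCAAT and CCACG separated by 9 bases. Capitals mark the matches.
Hsph1 (chr12:10427118-10427417, + strand): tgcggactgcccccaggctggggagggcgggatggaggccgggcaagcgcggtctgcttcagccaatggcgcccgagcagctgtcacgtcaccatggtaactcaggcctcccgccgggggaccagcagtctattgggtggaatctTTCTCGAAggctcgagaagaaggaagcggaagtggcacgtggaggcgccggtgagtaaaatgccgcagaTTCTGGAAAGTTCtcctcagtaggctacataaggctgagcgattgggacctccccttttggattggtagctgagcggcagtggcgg
Dnaja1 (chr5:60638154-60638453, + strand): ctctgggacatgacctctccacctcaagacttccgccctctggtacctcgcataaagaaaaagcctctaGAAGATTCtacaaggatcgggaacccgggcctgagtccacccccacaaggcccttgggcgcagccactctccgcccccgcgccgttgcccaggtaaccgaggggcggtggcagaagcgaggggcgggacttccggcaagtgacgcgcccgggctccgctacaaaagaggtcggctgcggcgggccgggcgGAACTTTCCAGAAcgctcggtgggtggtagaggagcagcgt
Hspa8 (chr8:50080264-50080563, + strand): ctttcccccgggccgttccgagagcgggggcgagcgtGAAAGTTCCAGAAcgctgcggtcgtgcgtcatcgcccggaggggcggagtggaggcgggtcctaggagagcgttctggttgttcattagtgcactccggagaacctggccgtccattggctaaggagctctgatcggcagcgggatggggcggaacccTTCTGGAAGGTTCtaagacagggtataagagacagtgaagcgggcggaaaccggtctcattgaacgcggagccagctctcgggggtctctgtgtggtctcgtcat
Hspb1 (chr12:26432252-26432551, - strand): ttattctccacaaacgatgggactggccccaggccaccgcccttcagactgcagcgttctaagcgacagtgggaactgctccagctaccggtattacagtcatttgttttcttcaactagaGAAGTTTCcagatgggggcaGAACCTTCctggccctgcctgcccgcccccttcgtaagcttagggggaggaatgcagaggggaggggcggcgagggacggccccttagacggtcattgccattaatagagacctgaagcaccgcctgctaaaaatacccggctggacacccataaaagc
Hspa5 (chr3:38452766-38453065, + strand): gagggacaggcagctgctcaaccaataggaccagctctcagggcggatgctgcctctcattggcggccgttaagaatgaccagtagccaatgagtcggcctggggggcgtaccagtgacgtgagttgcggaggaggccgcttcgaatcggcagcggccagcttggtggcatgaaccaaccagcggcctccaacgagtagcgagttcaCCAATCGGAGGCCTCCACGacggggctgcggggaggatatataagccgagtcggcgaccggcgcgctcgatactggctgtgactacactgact

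A pair was present in 16 of the 38 promoters (42.1%), against 15.9% of all 33469 promoters. A triple was present in 6 of the 38 (15.8%), namely Cct4, Dnaja1, Hspa8, Hspd1, Hspe1 and Hsph1, against 0.798% of all promoters. Hspd1 and Hspe1 lie head to head and share 1 stretch of sequence. Hspb1 held 2 pairs and no triple. The endoplasmic reticulum stress element was present in Hspa5 and Dnajc3 (5.26%), against 0.0657% of all promoters. Every promoter shown above held a match. Hsp90aa1, Dnajc12 and Dnajc16 also recur below and were not among the genes with a match. A match describes these letters only.

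In the heat map of group means the set did not follow 1 course in all 4 strains. From day 0 to day 7 the mean rose for 9 of the 45 genes in FL, 10 in L, 9 in LF and 27 in F. Over all genes the shares were 39.9%, 41.8%, 39.1% and 48.1%. After quantile normalization of the arrays the mean rose for 17, 19, 14 and 27 of the 45. Medians over all genes were then 0.029, 0.023, 0.046 and -0.0017. From day 7 to day 10, without that normalization, the mean rose for 38, 36, 38 and 4 of the 45. The shares of all genes were then 64.9%, 62.4%, 61.5% and 33.6%. After quantile normalization the rises numbered 28, 26, 28 and 14 of the 45. Medians over all genes were -0.021, -0.022, -0.048 and 0.0091. The part of the array scale in these counts was not tested. Of the 45 genes, 10 had their highest group mean in F at day 7 (22.2%, against 7.74% of all genes) and 10 in LF at day 0 (22.2%, against 11.8%). The lowest group mean lay in FL at day 7 for 18 genes (40%, against 21.9%) and in LF at day 7 for 12 (26.7%, against 16.1%). FL and LF at day 7 also had the lowest mean array medians over all probe sets, 6.20 and 6.23, against 6.27 to 6.44 in the other 10 groups, and the part of this in the lows was not tested. The 45 genes were read by 457 probe sets, with a median of 10 each, and all were tested, 4 of them (Dnajb13, Dnajc4, Dnajc5g and Hspb3) lying among the dimmest 33.3% of all genes. Of the 45 genes, 14 passed the test in at least 1 of 30 comparisons and 31 in none of these 30. The 30 leave out other comparisons of the same fit, such as FL minus LF at single days. There 2 of the 45 passed at day 0 and 2 at day 7, against 202 and 203 of all 7997 genes. Hspb3, outside the 14, was the gene higher in FL at day 0 (0.74). In FL minus L at days 0 and 7, 1 of the 45 passed, Dnajc12, against 113 and 120 of all genes. Dnajc12 was also the 1 call in F minus L at day 10 (253 of all genes) and in F minus LF at days 0 and 10 (145 and 337). The test throughout was limma on log2 gene values, with Benjamini-Hochberg adjustment over all 7997 genes and a call at an adjusted p under 0.05.

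**Figure D1:**
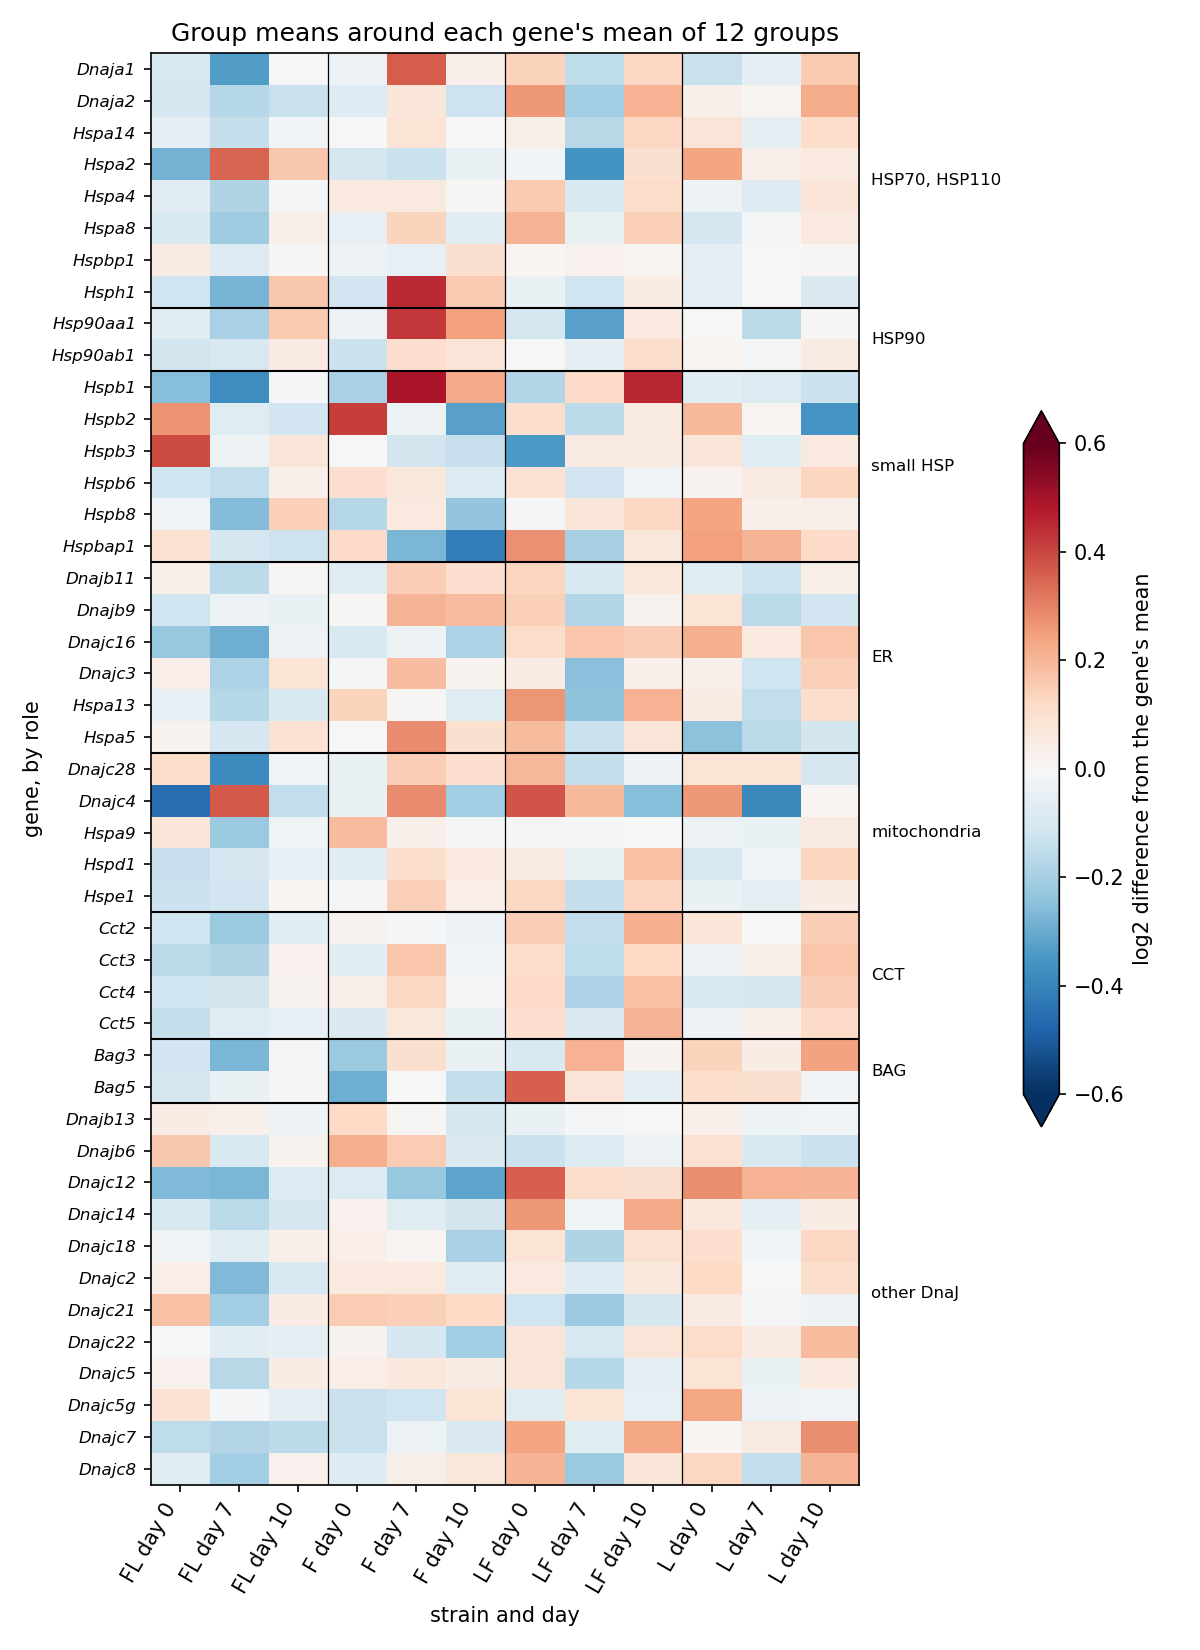
Heat map of the 45 genes (rows, grouped by role) in the 12 strain-by-day groups (columns), each cell being the mean of 4 arrays minus the gene's mean of the 12 groups on the log2 scale. Hspb1, Hsph1, Hsp90aa1 and Dnaja1 have their highest mean in F at day 7, and 18 and 12 of the 45 genes have their lowest in FL and LF at day 7.

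Averaged over the 4 strains, the genes that passed for time all lay in the group of small heat shock proteins and their binders. They did not move in 1 direction. Hspb1, whose product guards actin and binds unfolded protein, had 7.36 ± 0.14 at day 0, 7.57 ± 0.38 at day 7 and 7.67 ± 0.31 at day 10 (log2, SD, n = 16 arrays each). The day 10 arrays ran between 7.06, a median of 7.70 and 8.13, and the day 0 arrays between 7.14, a median of 7.33 and 7.60, so the ranges overlapped. Hspb1 was 0.31 log2 units higher at day 10 than at day 0 (SE 0.07, adjusted p = 0.0076). Of the 48 arrays left out singly none ended this call, and it ended without all arrays of number 1 (adjusted p = 0.12) or of number 3 (0.061). Hspb2, a muscle-enriched small heat shock protein that binds the myotonic dystrophy kinase, fell by 0.43 (SE 0.11, adjusted p = 0.023), with 4.78 ± 0.34 at day 10, against 5.21 ± 0.36 at day 0. Its call ended without F day 0 replicate 1 (adjusted p = 0.051), and without all arrays of number 1 (0.32), 2 (0.18) or 3 (0.055). Without all arrays of strain F, or of strain LF, Hspb1 was no longer called at day 10 (adjusted p = 0.13 and 0.40). These were 2 calls among the 45 genes, or 4.44%, against 2.3% of all genes at day 10.

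At day 7 the single call was Hspbap1, named for its binding to HSPB1, which was 0.27 lower (SE 0.08, adjusted p = 0.038), with 6.83 ± 0.25 at day 7, against 7.10 ± 0.20 at day 0. That is 1 of 45 genes, or 2.22%, against 4.98% of all genes. Its call ended on leaving out any of 15 of the 48 arrays singly, with an adjusted p of up to 0.079, and without number 1, 2 or 3 (up to 0.35). When the replicate number entered the fit as a block, 5 of the 45 passed at day 7, adding Hspb1 (0.21, adjusted p = 0.048), Hspb2 (-0.31, adjusted p = 0.037), Hspa13, an endoplasmic reticulum HSP70 relative (-0.24, adjusted p = 0.029), and Dnajc14, a DnaJ protein of the endoplasmic reticulum membrane (-0.14, adjusted p = 0.030). With the block at day 10, 4 passed, adding Hsp90ab1 (0.12, adjusted p = 0.027) and Hspbap1 (-0.27, adjusted p = 0.014). Between days 10 and 7 no gene of the set passed limma's test, and 0.075% of all genes did. Of the 45, 9 had an unadjusted p under 0.05 in limma, against 13.1% of all genes.

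By role, the day 10 differences were small outside the small heat shock genes. All 8 HSP70 and HSP110 system genes had a positive difference at day 10, with a median of 0.044 and none past the test, against a median of -0.0034 over all genes. The smallest p in that group was that of Hsph1, the HSP110 nucleotide exchange factor (0.15, adjusted p = 0.39). Hspa8, the constitutive HSP70, differed by 0.051 (adjusted p = 0.89). Among the HSP90 genes Hsp90aa1, the inducible form, differed by 0.17 (adjusted p = 0.21) and Hsp90ab1, the constitutive form, by 0.12 (adjusted p = 0.085). The 4 CCT genes, subunits of the ring that folds actin and tubulin, lay between 0.034 and 0.11, with the smallest p at Cct5 (0.097, adjusted p = 0.65). In the mitochondrial group the smallest p was that of Hspd1. Hspd1 and Hspe1, the HSP60 and HSP10 of the matrix folding chamber, differed by 0.14 (adjusted p = 0.59) and 0.070 (adjusted p = 0.90), and Hspa9, the matrix HSP70, by -0.053 (adjusted p = 0.94). The 6 endoplasmic reticulum genes lay between -0.062 and 0.050, with Hspa5, the luminal HSP70 called BiP, at 0.048 (adjusted p = 0.95) and Dnajb11, its DnaJ partner, at 0.050 (adjusted p = 0.93). Bag3, a nucleotide exchange factor that steers clients to autophagy, differed by 0.13 (adjusted p = 0.52). Among the further DnaJ proteins the smallest p was that of Dnajb6, a suppressor of protein aggregation (adjusted p = 0.65).

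Within strains the clearest time difference was in F at day 7. Hspb1 had 8.07, 7.64, 8.09 and 8.28 in the 4 F arrays at day 7, against 7.34, 7.42, 7.32 and 7.27 in the 4 F arrays at day 0. All 4 day 7 arrays lay above all day 0 arrays. The difference was 0.68 (SE 0.14, adjusted p = 0.0059), a fold of 1.60. Hsph1 had 8.99, 8.72, 8.70 and 8.86 at day 7, against 8.04, 8.26, 8.35 and 8.37 at day 0, again without overlap. Hsph1 was 0.56 higher (SE 0.13, adjusted p = 0.025), a fold of 1.48. All 17 probe sets of Hsph1 and all 4 of Hspb1 were higher at day 7 than at day 0 in F.

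These 2 calls were 4.44% of the 45 genes, against 0.688% of all genes. Hsp90aa1 had 10.34, 10.23, 10.13 and 9.99 at day 7, against 9.59, 9.78, 9.66 and 9.81 at day 0, and differed by 0.46 (adjusted p = 0.080, and 0.036 with the replicate block). Dnaja1, a main DnaJ partner of HSPA8, differed by 0.40 (adjusted p = 0.59) with overlapping arrays. The Hspb1 call ended without F day 7 replicate 4 (adjusted p = 0.052), and the Hsph1 call ended without F day 0 replicate 1 (0.16), F day 0 replicate 2 (0.062), F day 7 replicate 1 (0.13) or F day 7 replicate 4 (0.073). Leaving out all arrays of 1 number ended the Hspb1 call for 3 of the 4 numbers (adjusted p up to 0.15) and the Hsph1 call for all 4 (0.099 to 0.27). In a limma fit on the F arrays of these days alone both had an adjusted p of 0.057. Of 8 measured tubular injury genes 3 were higher in F at day 7, with Havcr1, the KIM-1 injury receptor, 2.95 higher (7.52 ± 0.58 at day 7, against 4.56 ± 0.31 at day 0). Of 5 smooth muscle genes 2 were higher, Tagln and Actg2. Their part in the chaperone values was not tested.

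In the other strains neither gene passed at day 7. In FL, Hspb1 had 7.04, 7.10, 7.20 and 7.29 at day 7, against 7.46, 7.31, 7.14 and 7.19 at day 0, a difference of -0.12 (95% interval -0.40 to 0.17). Hsph1 in FL had 8.24, 7.87, 8.01 and 8.24 at day 7, against 8.24, 8.20, 8.13 and 8.42 at day 0, a difference of -0.16 (95% interval -0.43 to 0.11). Both genes overlapped between days in FL. In L, Hspb1 differed by -0.016 (95% interval -0.30 to 0.27) and Hsph1 by 0.052 (95% interval -0.22 to 0.32). In LF, Hspb1 differed by 0.29 (95% interval 0.0081 to 0.58, adjusted p = 0.25) and Hsph1 by -0.080 (95% interval -0.35 to 0.19).

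**Figure D2:**
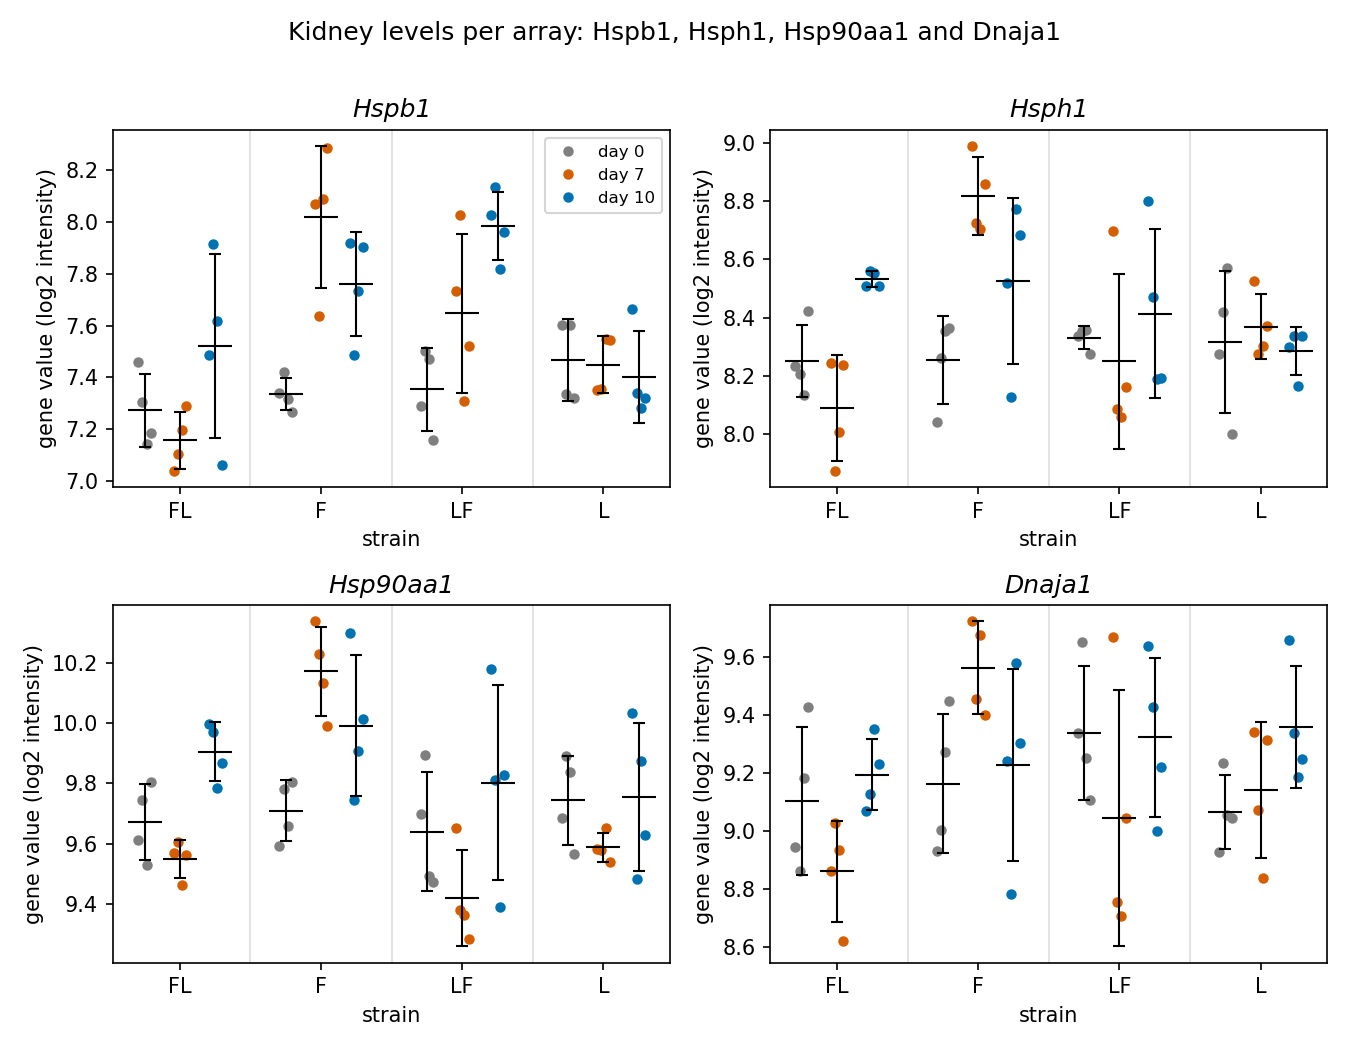
Gene values (log2 intensity) of Hspb1, Hsph1, Hsp90aa1 and Dnaja1 in every array (points), by strain and, from left to right within a strain, day 0, 7 and 10; bars are the mean and SD of 4 arrays. In F the day 7 arrays of Hspb1, Hsph1 and Hsp90aa1 lie above all F day 0 arrays, and in FL the day 7 arrays overlap those of day 0.

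No gene of the set passed in FL at day 7 (0.15% of all genes) or at day 10 (0.025%), in L at day 7 (0% of all genes) or at day 10 (0%), or in F at day 10 (0.375%). At an unadjusted p under 0.05 in limma, FL held 6 and 4 at days 7 and 10 and L 0 and 1. F held 6 at day 10. The shares of all genes were 6.14% and 4.1% in FL, 4.25% and 4.2% in L, and 8.92% in F. In F at day 10 Hspb1 had 7.92, 7.49, 7.73 and 7.90, above all 4 day 0 arrays, with a difference of 0.42 (adjusted p = 0.25).

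In LF Hspb1 was higher at day 10. Hspb1 had 8.02, 8.13, 7.82 and 7.96 in LF at day 10, against 7.29, 7.50, 7.47 and 7.16 in LF at day 0. The groups did not overlap, and the difference was 0.63 (SE 0.14, adjusted p = 0.012), a fold of 1.55. It was the only call of the set there (2.22%, against 1.04% of all genes). The call ended without LF day 0 replicate 1 (adjusted p = 0.054), LF day 0 replicate 4 (0.070), LF day 10 replicate 1 (0.052) or LF day 10 replicate 2 (0.065), and for 3 of the 4 numbers (up to 0.22). Hspb1 was also 0.58 higher in LF than in L at day 10 (SE 0.14, adjusted p = 0.045), where L had 7.66, 7.34, 7.28 and 7.32, and this was again the only call of the set (2.22%, against 0.388% of all genes). That call was not examined with arrays left out. Hsph1 in LF had 8.41 ± 0.29 at day 10, against 8.33 ± 0.04 at day 0 (adjusted p = 1.00). Of the 8 tubular injury genes 6 were higher in LF at day 10, with Havcr1 3.87 higher.

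LF at day 7 was low across the set without a call. Of the 45 genes 36 had a lower mean at day 7 than at day 0, with a median of -0.25, against -0.065 over all genes (-0.088, against 0.046, after quantile normalization). The mean array median was 6.23 in LF at day 7, against 6.42 in LF at day 0, and its part was not tested. At an unadjusted p under 0.05 in limma there were 21 of the 45 genes, against 19.3% of all genes. None of the 45 passed, and 2.44% of all genes passed. With the replicate block 5 passed, all lower: Hspa13 (-0.51, adjusted p = 0.028), Hspbap1 (-0.47, adjusted p = 0.028), Cct2 (-0.30, adjusted p = 0.040), Dnajc14 (-0.28, adjusted p = 0.044) and Dnaja2, a DnaJ partner of HSPA8 (-0.47, adjusted p = 0.044). After quantile normalization, which raised the median of all genes in this comparison by 0.111, none of these passed and 2 genes were higher, Bag3 (0.49, adjusted p = 0.011) and Hspb1 (0.44, adjusted p = 0.046). Between days 10 and 7 in LF none of the 45 passed, and 1.34% of all genes did. Of the 45, 16 had an unadjusted p under 0.05 in limma, against 18.6% of all genes.

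Set against F directly, FL at day 7 had lower levels of 5 chaperone genes. Hspb1 was lower by 0.86 (SE 0.14, adjusted p = 0.00082), a fold of 1.82 in size, and the 4 FL arrays (7.04, 7.10, 7.20 and 7.29) all lay below the 4 F arrays (8.07, 7.64, 8.09 and 8.28). Hsph1 was lower by 0.73 (SE 0.13, adjusted p = 0.0040), and Hsp90aa1 by 0.62 (SE 0.13, adjusted p = 0.0070), with FL at 9.57, 9.61, 9.46 and 9.56, against F at 10.34, 10.23, 10.13 and 9.99. Neither gene overlapped between the strains. Dnaja1 was lower by 0.70 (SE 0.17, adjusted p = 0.035), with 8.86, 9.03, 8.93 and 8.62 in FL, against 9.72, 9.45, 9.67 and 9.40 in F. Dnajc28, a little-studied DnaJ protein grouped with the mitochondrial genes here, was lower by 0.53 (SE 0.13, adjusted p = 0.040), with 6.73 ± 0.25 in FL, against 7.25 ± 0.03 in F (SD, n = 4 arrays each).

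The 5 calls were 11.1% of the 45 genes, against 0.738% of all genes in FL minus F at day 7. Of the 45 genes 38 had a lower mean in FL, with a median of -0.23, against -0.072 over all genes (32 genes and -0.10, against 0.031, after quantile normalization). The mean array median was 6.20 in FL, against 6.37 in F at day 7, and its part was not tested. Every probe set of Hspb1 (4), Hsph1 (17), Hsp90aa1 (14) and Dnaja1 (8) was lower in FL. Hspa8 differed by -0.35 without overlap (adjusted p = 0.058, and 0.033 with the replicate block), and Hspa5 by -0.38 (adjusted p = 0.13). By role, all 6 endoplasmic reticulum genes had negative differences, between -0.38 and -0.18, with none past the test. All 4 CCT genes had negative differences as well, between -0.35 and -0.14, again with none past the test. Of the 8 HSP70 and HSP110 system genes 7 had negative differences and 2 passed. Hspa2, an HSP70 known for its role in testis, was the exception at 0.48 (adjusted p = 0.34). Of the 12 further DnaJ proteins 9 had negative differences, between -0.35 and -0.046, and none passed.

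Quantile normalization of the arrays shifted the median of all genes here by 0.103. Under it Hspb1 (-0.72), Hsph1 (-0.59) and Hsp90aa1 (-0.53) passed, and Dnaja1 (-0.60, adjusted p = 0.081) and Dnajc28 (-0.37, adjusted p = 0.13) did not. In a limma fit on the FL and F day 7 arrays alone none of the 5 passed, with an adjusted p of 0.085 for Hspb1, Hsph1 and Hsp90aa1, where 1 gene of all passed.

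In FL minus F at day 7 no single array ended the calls of Hspb1 (adjusted p up to 0.0077) and Hsph1 (up to 0.033). Leaving out all arrays of 1 number kept the Hspb1 call (up to 0.040) and ended that of Hsph1 without number 2 (0.074) or number 3 (0.060). The Hsp90aa1 call ended without F day 7 replicate 1 (adjusted p = 0.061), and those of Dnaja1 and Dnajc28 each ended without any of 6 arrays (up to 0.18 and 0.23). By number, the Hsp90aa1 call ended for 3 of 4 (up to 0.17), and those of Dnaja1 and Dnajc28 for all 4 (up to 0.27 and 0.30). Beside this, 2 of 8 tubular injury genes were lower in FL, Havcr1 (-2.17) and Clu (-0.93), and their part in the chaperone values was not tested. At day 0 none of the 45 passed in FL minus F, and 0.075% of all genes did. Of the 45, 1 had an unadjusted p under 0.05 in limma there, against 4.14% of all genes. Hspb1 differed there by -0.063 (95% interval -0.35 to 0.22) and Hsph1 by -0.0053 (95% interval -0.28 to 0.27).

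**Figure D3:**
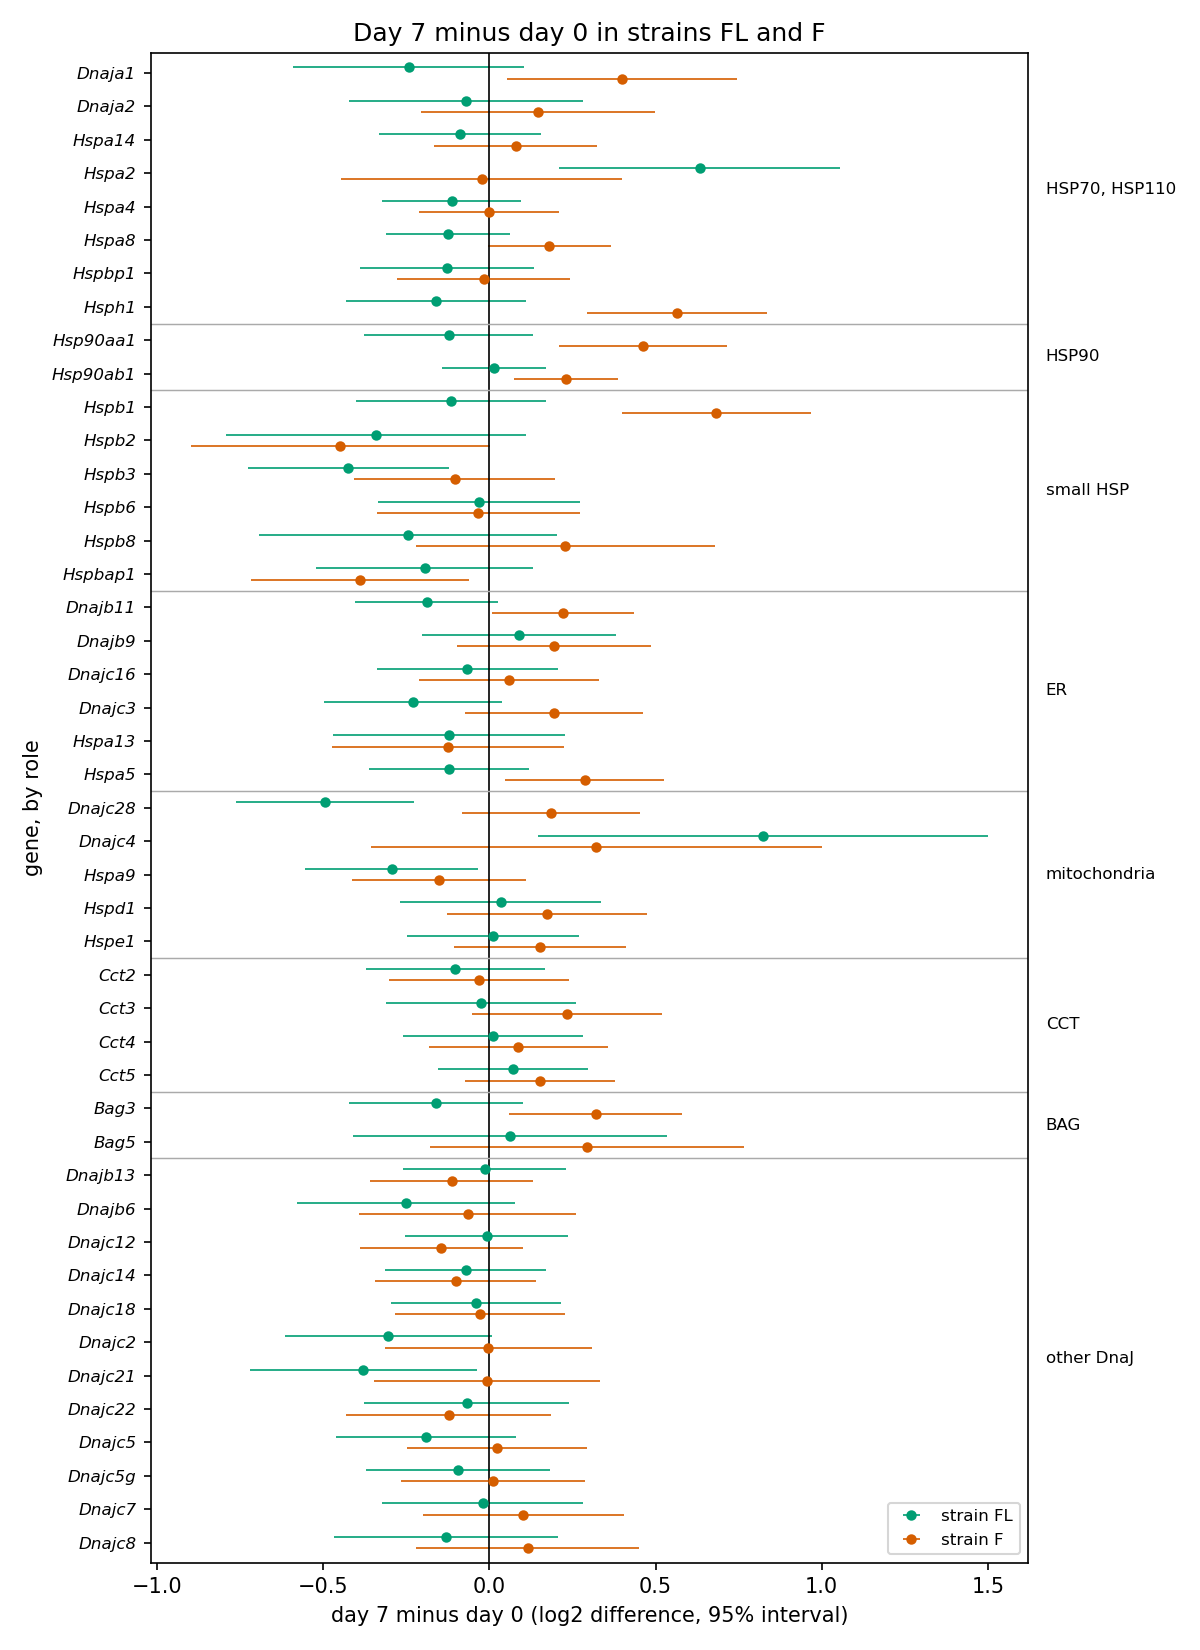
Day 7 minus day 0 (log2 difference, limma, with 95% interval) of the 45 genes in strain FL (green, upper point) and strain F (orange, lower point), ordered by role. The intervals of Hspb1 and Hsph1 lie above 0 in F and include 0 in FL.

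Other genes of the cytosolic pathway were read from a list of 19 partners, of which 7 were measured. In FL minus F at day 7, 2 of the 7 were lower and none higher: Stip1, the HOP adaptor between HSP70 and HSP90 (-0.65, adjusted p = 0.032), and Cryab, a small heat shock protein of the crystallin family (-0.48, adjusted p = 0.031). The list's median was -0.45, against -0.072 over all genes. In the endoplasmic reticulum list 12 of 19 genes were measured, and 1 was lower, Pdia4, a disulphide isomerase (-0.47, adjusted p = 0.040). None of 9 measured mitochondrial import genes and none of 4 CCT and prefoldin partners passed there. Averaged over strains, 1 of the 7 cytosolic partners was higher at day 10, Fkbp5, an HSP90 co-chaperone of steroid receptors (0.71, adjusted p = 0.026).

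Whether the day 7 responses themselves differed was tested directly, and no gene of the set passed. The response of Hspb1 was 0.80 lower in FL than in F (SE 0.20, 95% interval -1.20 to -0.40, adjusted p = 0.16), and that of Hsph1 was 0.72 lower (SE 0.19, 95% interval -1.11 to -0.34, adjusted p = 0.19). In all, 0.0625% of all genes passed for FL minus F at day 7 and 0.0125% at day 10. For F minus L the background was 0% at day 7 and 0% at day 10, and for LF minus L it was 0.0875% at day 7 and 0.0375% at day 10. For FL minus F at days 7 and 10, 11 and 1 of the 45 genes had an unadjusted p under 0.05 in limma. The shares of all genes there were 4.91% and 4.16%. For F minus L there were 7 and 2, against 3.9% and 5.99% of all genes. For LF minus L there were 5 and 1, against 4.48% and 4.3% of all genes. In the F test of strain by day none of the 45 passed, with Hspb1 smallest (adjusted p = 0.12), against 0.2% of all genes.

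F at day 7 also differed from L and LF, which share the F arrays with the comparison above. In F minus L at day 7, Hsp90aa1 was higher by 0.58 (SE 0.13, adjusted p = 0.0047), Hspb1 by 0.57 (SE 0.14, adjusted p = 0.019) and Hspa5 by 0.45 (SE 0.12, adjusted p = 0.033), and Dnajc12 was lower by 0.44 (SE 0.12, adjusted p = 0.046). Hspa5 had 11.23, 11.18, 11.14 and 10.96 in F, against 10.64, 10.73, 10.71 and 10.66 in L. The strains did not overlap for Hsp90aa1, Hspb1 or Hspa5, and they overlapped for Dnajc12. These 4 calls were 8.89% of the 45 genes, against 2.01% of all genes. No single array ended the Hsp90aa1 call, 5 of the 48 did for Hspb1 (adjusted p up to 0.10), 7 for Hspa5 (up to 0.12) and 24 for Dnajc12 (up to 0.22). By number, the calls ended for 1 of 4 in Hsp90aa1 (adjusted p up to 0.072), 3 in Hspb1 (up to 0.24), 4 in Hspa5 (up to 0.26) and 3 in Dnajc12 (up to 0.35).

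In F minus LF at day 7, Hsp90aa1 was higher by 0.75 (SE 0.13, adjusted p = 0.00014), with LF at 9.65, 9.38, 9.36 and 9.29, and Hsph1 was higher by 0.57 (SE 0.13, adjusted p = 0.0094), with LF at 8.70, 8.09, 8.06 and 8.16. Neither gene overlapped between the strains, though the highest LF array of Hsph1 came close to the lowest F array. These 2 calls were 4.44% of the 45 genes, against 2.18% of all genes, and were not examined with arrays left out. At day 0 none of the 45 passed in F minus L, and 1.35% of all genes did. Of the 45, 5 had an unadjusted p under 0.05 in limma there, against 8.37% of all genes.

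Averaged over the 3 days, the smallest p in F minus L was that of Dnajc12, a DnaJ protein known in humans as the co-chaperone of the aromatic amino acid hydroxylases. The 12 FL arrays ran between 7.44, a median of 7.74 and 8.07, and the 12 F arrays between 7.42, a median of 7.74 and 8.04. The 12 LF arrays ran between 7.98, a median of 8.10 and 8.36, and the 12 L arrays between 7.79, a median of 8.16 and 8.42. The FL and F arrays had the lower medians and the LF and L arrays the higher ones, with overlap in a few arrays. Dnajc12 was lower in F than in L by 0.44 (SE 0.07, adjusted p = 1.57e-05), in FL than in L by 0.44 (adjusted p = 1.65e-05), in FL than in LF by 0.39 (adjusted p = 7.7e-05) and in F than in LF by 0.40 (adjusted p = 9.0e-05). FL minus F was 0.0011 (95% interval -0.14 to 0.14) and LF minus L was -0.044 (95% interval -0.19 to 0.098).

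All 6 probe sets of Dnajc12 were lower in F than in L, by 0.31 to 0.77, and all 6 were lower in FL than in LF. In the carrier groups of day 0, Dnajc12 had 7.55, 7.67, 7.61 and 7.86 in FL, 7.70, 7.90, 7.83 and 8.00 in F, 8.28, 8.36, 8.30 and 8.25 in LF, and 8.18, 8.13, 8.42 and 8.15 in L. Every FL and F array lay below every LF and L array at day 0. No array left out, singly or with all arrays of its number, ended any of these 4 calls averaged over days (adjusted p up to 0.019).

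**Figure D4:**
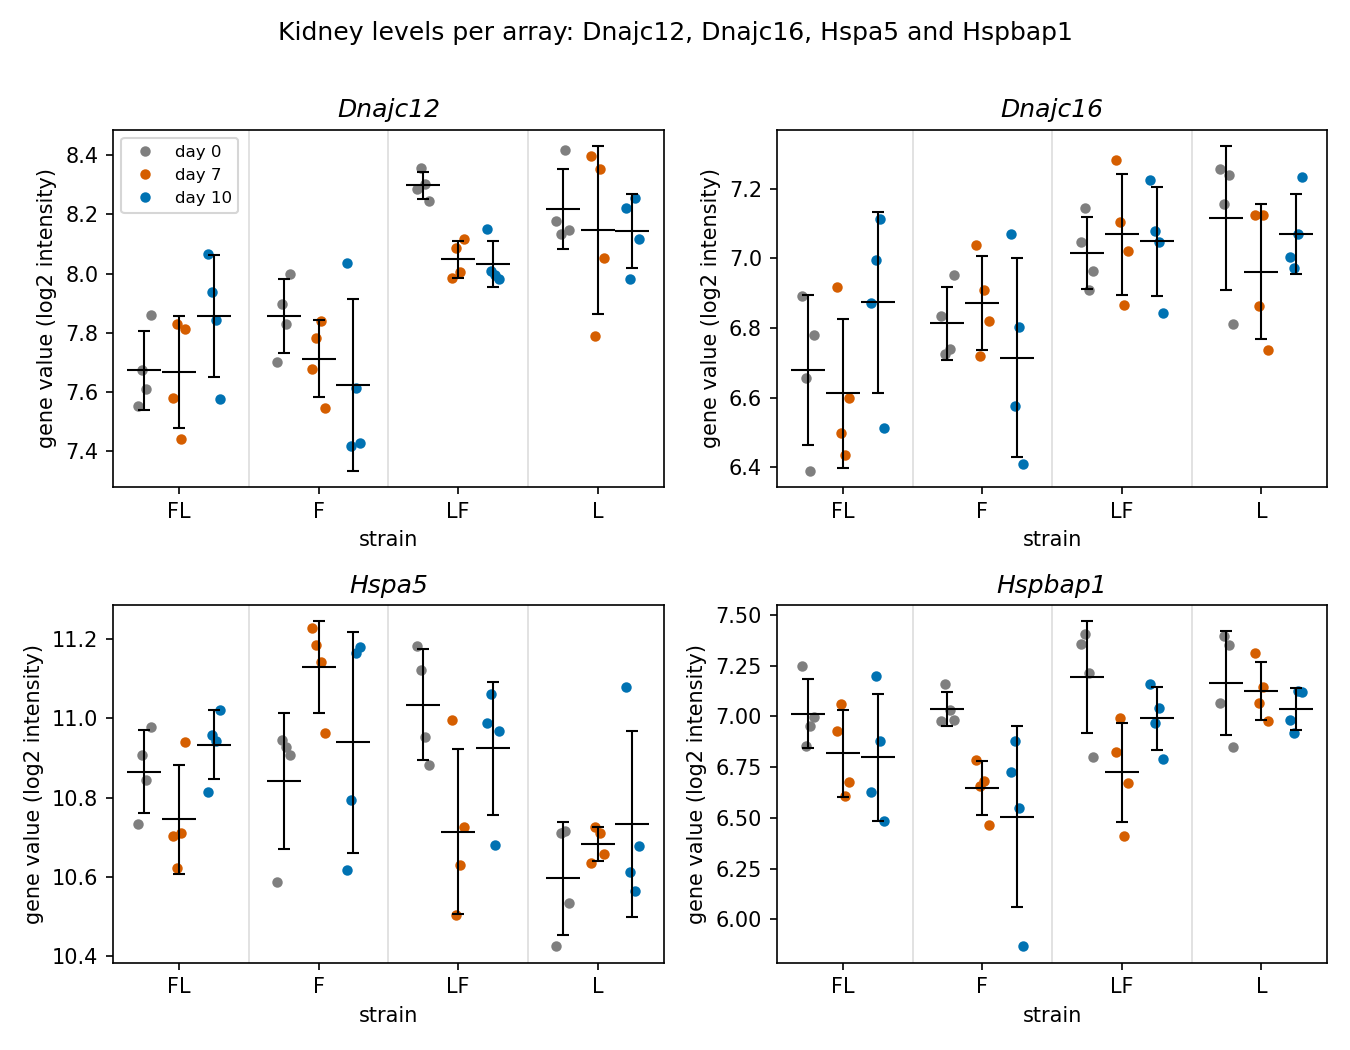
Gene values (log2 intensity) of Dnajc12, Dnajc16, Hspa5 and Hspbap1 in every array (points), by strain and, from left to right within a strain, day 0, 7 and 10; bars are the mean and SD of 4 arrays. Dnajc12 is lower in FL and F than in LF and L at each day, and Hspa5 is lowest in L.

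Dnajc16, a DnaJ protein of the endoplasmic reticulum membrane, followed the same order of strains. It averaged 6.72 ± 0.24 in FL, 6.80 ± 0.19 in F, 7.04 ± 0.14 in LF and 7.05 ± 0.17 in L (SD, n = 12 arrays each). It was lower in FL than in L by 0.33 (adjusted p = 0.0037), in FL than in LF by 0.32 (adjusted p = 0.0037), in F than in L by 0.25 (adjusted p = 0.038) and in F than in LF by 0.25 (adjusted p = 0.044). The call of F against L ended without any of 14 single arrays (adjusted p up to 0.097) and that of F against LF without any of 16 (up to 0.10). Without all arrays of 1 number, the calls of Dnajc16 ended for 1 of 4 numbers in FL against L (0.13) and in FL against LF (0.088), for 2 in F against L (up to 0.26) and for all 4 in F against LF (up to 0.49). Neighbours in the order, FL and F or LF and L, did not differ past the test.

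F minus L over days held 6 calls, or 13.3% of the 45 genes, against 7.03% of all genes. Beside Dnajc12 and Dnajc16, Hspbap1 was lower in F by 0.38 (SE 0.09, adjusted p = 0.00595), with 6.73 ± 0.34 in F, against 7.11 ± 0.17 in L. Hspa5 was higher in F by 0.30 (SE 0.07, adjusted p = 0.0030), with 10.97 ± 0.22 in F, against 10.67 ± 0.16 in L. All 10 probe sets of Hspa5 were higher in F. Hspb1 (0.27, adjusted p = 0.035) and Hsp90aa1 (0.26, adjusted p = 0.017) were higher in F, and both also passed in F minus L at day 7 and not at day 0. The Hspb1 call ended without any of 13 single arrays (adjusted p up to 0.084) and for 3 of the 4 numbers (up to 0.20). No single array ended the calls of Hspbap1, Hspa5 and Hsp90aa1, but leaving out all arrays of 1 number did: Hspbap1 (number 3, 0.12), Hspa5 (number 3, 0.096, or 4, 0.053) and Hsp90aa1 (number 2, 0.093, or 4, 0.16).

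Of 12 measured folding genes of the endoplasmic reticulum outside the set, 3 were higher in F than in L and none lower: Hyou1, the luminal HSP110 relative (0.38, adjusted p = 2.1e-05), Pdia4 (0.30, adjusted p = 0.0030) and Pdia6, a disulphide isomerase (0.27, adjusted p = 0.0029). Hsp90b1, the luminal HSP90 GRP94, which the platform lists under an older symbol and which is outside the 45, was higher by 0.35 (adjusted p = 0.0051). The other luminal chaperones in the set had values of 0.20 for Dnajb9 (adjusted p = 0.18), 0.11 for Dnajb11 (adjusted p = 0.34) and 0.047 for Dnajc3 (adjusted p = 0.82). In the other roles the smallest p-values in F minus L were those of Hsph1 (0.21, adjusted p = 0.10), Bag3 (-0.19, adjusted p = 0.12), Hspa9 (0.075, adjusted p = 0.67) and Cct2 (-0.081, adjusted p = 0.66). Of 9 mitochondrial import genes 1 was lower in F, Tomm22, an outer membrane receptor (-0.27, adjusted p = 0.0084). Of 8 tubular injury genes 2 were higher (Havcr1 and Timp1) and 2 lower (Lcn2 and Krt18) in F, and 2 of 5 macrophage markers were lower; their part was not tested.

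Use of single probe sets, which can reflect differential exon use, was compared between F and L. In limma's diffSplice none of 44 testable genes passed, against 5.62% of 7510 genes called. None of the 44 had an unadjusted p under 0.05 in that test. The smallest p-values were those of Hspa14 (17 probe sets, adjusted p = 0.43), Hspb2 (3 probe sets, 0.49) and Hspa8 (10 probe sets, 0.69). The test assumes 1 spread for all probe sets of a gene, and calls over all genes are too many where spreads are unequal.

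FL minus LF over days held 6 calls, all lower in FL, or 13.3% of the 45 genes, against 10.8% of all genes. Beside Dnajc12 and Dnajc16 they were Hspb1 (-0.34, adjusted p = 0.0031), Dnajc14 (-0.27, adjusted p = 0.0057), Hspa8 (-0.19, adjusted p = 0.014) and Dnajc7, which binds HSP70 and HSP90 through its repeats (-0.29, adjusted p = 0.020). The Dnajc7 call ended without FL day 10 replicate 4 (adjusted p = 0.058) or LF day 10 replicate 1 (0.055), and for 3 of the 4 numbers (up to 0.11). The Hspa8 call ended for 3 of the 4 numbers (up to 0.21), and without number 1 its difference was -0.11. Those of Hspb1 and Dnajc14 did not end for any array or number (up to 0.038 and 0.041). All 8 tubular injury genes were lower in FL than in LF, and their part was not tested. FL minus L held 4 calls, all lower (8.89%, against 10.3% of all genes): Dnajc12, Dnajc16, Dnajc7 (-0.28, adjusted p = 0.033) and Bag3 (-0.27, adjusted p = 0.013). The Bag3 call was lost after quantile normalization (-0.16, adjusted p = 0.11), and that of Dnajc7 ended without any of 11 single arrays (adjusted p up to 0.093) and for 3 of the 4 numbers (up to 0.33). The Bag3 call ended without number 2 (0.090) or 3 (0.27).

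F minus LF over days held 3 calls (6.67%, against 7.09% of all genes), Dnajc12, Dnajc16 and Hsp90aa1 (0.34, adjusted p = 0.0014). With the replicate block there were 6, adding Dnajc14 (-0.21, adjusted p = 0.0044), Dnajc21, a DnaJ protein of ribosome assembly (0.29, adjusted p = 0.042), and Hspbap1 (-0.24, adjusted p = 0.042). FL minus F held 1 call, Hspb1 (-0.39, adjusted p = 0.014), or 2.22%, against 0.35% of all genes, and it was not called in a limma fit on the FL and F arrays alone (adjusted p = 0.086) or for 3 of the 4 numbers left out (up to 0.24). LF minus L held no call, where 0.675% of all genes were called. At an unadjusted p under 0.05 in limma there were 4 of the 45 genes, against 6.9% of all genes. Hspa5 came closest there (0.22, adjusted p = 0.18).

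The inducible HSP70 genes could be seen only through 4 probe sets assigned jointly to Hspa1a, Hspa1b and Hspa1l, tested among all 92401 probe sets. The first of them, in F, had 9.04, 9.24, 9.24 and 9.57 at day 7, against 8.41, 8.25, 8.27 and 8.22 at day 0, with no overlap. That difference was 0.98 (SE 0.29, adjusted p = 0.27). The second had 6.71, 7.35, 7.79 and 8.26 in F at day 7, against 5.70, 6.08, 6.43 and 6.53 at day 0, a difference of 1.35 (SE 0.32, adjusted p = 0.067), and averaged over strains it was 0.67 higher at day 7 (SE 0.16, adjusted p = 0.018). In FL the second had 6.78 to 7.62 at day 7, against 6.16 to 6.35 at day 0, without overlap (0.83, adjusted p = 0.60). The first differed by 0.44 in FL (adjusted p = 0.77), also without overlap. FL minus F at day 7 was -0.80 for the first (adjusted p = 0.34) and -0.47 for the second (adjusted p = 0.65). For the second, day 7 minus day 0 was 0.42 in L and 0.085 in LF, neither past the test. For the first it was 0.11 in L and 0.47 in LF, again neither past the test. In F at day 10 the second was 1.17 higher than at day 0 (adjusted p = 0.17). The first was 0.42 higher there (adjusted p = 0.72), with arrays of 7.85 to 9.62, against 8.22 to 8.41 at day 0. The other two lay between 3.47 and 5.34 in F at day 7 and differed by -0.20 and -0.59 in F (adjusted p = 1.00 and 0.87). Which of the 3 genes gave the signal cannot be told from these probe sets.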

How the data were processed

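Rat kidney RNA of 48 samples, 4 arrays in each of 12 groups, was read on exon arrays. The authors deposited log2 intensity per probe set, made with RMA per the submitters' processing notes (version not given in the sources used here), for 92401 probe sets. Of these 85406 carry 1 gene symbol, 1803 several and 5192 none. Symbols were updated through RefSeq GRCr8 (6113 current, 1876 updated, 27 kept). From these values, Tukey's median polish gave 7997 gene values per array, with no filter on dim genes. A limma (version 3.58.1, R 4.3.3) model of 12 group means was fitted with eBayes, with Benjamini-Hochberg adjustment over all genes and a call at 0.05. Figures used matplotlib 3.10.9 in python 3.11.15. Array median log2 values ran from 6.03 to 6.61, and the number of arrays limits the precision. The members were chosen by symbol, and members, lists and tests were chosen with earlier results of these data known. Named genes were a list of well-known members, every member called in any of the 30 comparisons and called genes of the pathway lists. Also named were the member of each role with the smallest p at day 10 and in F minus L. For probe set use the 3 members with the smallest p were named. The replicate number may mark a batch, since the names of array files with 1 number begin alike in the labels. Residuals of arrays with the same number had a mean correlation of 0.095 (264 pairs, 112 over 0.1), against -0.032 for different numbers (792 pairs, 156 over 0.1), so the number as a block is an alternative. Other alternatives were quantile normalization, the mean of probe sets, leaving out dim genes, strains or arrays, and fits on the compared groups alone. The alternatives for FL minus L, F minus LF, and FL minus F and F minus L at day 7 were chosen after seeing the data. The fit was tested on simulated data.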

Additional observations from a re-analysis of the deposited data

Results flagged for a closer look

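In 7 of 168 groups of 4 arrays, 1 array stood far from the other 3 by Dixon's criterion, which chance gives in about 1 in 20 groups. The groups were those of the 14 genes with a call in the 30 comparisons. Dnajc12 had 8.42 in L day 0 replicate 3, with the others at 8.13 to 8.18, and 8.15 in LF day 10 replicate 1, with the others at 7.98 to 8.01. Dnajc7 had 7.01 in FL day 10 replicate 4, with the others at 7.59 to 7.66. Hspa5 had 10.59 in F day 0 replicate 1, with the others at 10.91 to 10.95. Hspb1 had 7.66 in L day 10 replicate 1, with the others at 7.28 to 7.34. Hspb2 had 4.45 in L day 0 replicate 4, with the others at 5.31 to 5.48. Hsph1 had 8.70 in LF day 7 replicate 1, with the others at 8.06 to 8.16. Outside the 45 genes, a probe set shared by Hspa1a, Hspa1b and Hspa1l was 0.67 higher on the log2 scale at day 7 than at day 0. The other probe sets they share differed by 0.50, 0.22 and -0.10, none past limma's test.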

How the results depend on the processing

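Counts below are calls among the 45 genes, set against 1 at day 7 minus 0, 2 at day 10 minus 0, 0 at day 10 minus 7, 3 over 8 within-strain responses, 6 in F minus L, 1 in FL minus F, 3 in F minus LF, 5 in FL minus F at day 7 and 4 in F minus L at day 7. With the replicate number as a block there were 5 at day 7, 4 at day 10, 9 within strains and 6 in F minus LF. The block ended none of the 35 single-gene calls. It added Dnajc22 in F minus L, Cct2, Cct5 and Hspa4 in FL minus LF, Cct2 and Hspbap1 in FL minus L, Dnajc3 and Hspa8 in FL minus F at day 7, and Hsph1 and Hspbap1 in F minus L at day 7. Quantile normalization gave 3 at day 7, 5 at day 10, 8 within strains, 10 in F minus L, 9 in F minus LF and 3 in FL minus F at day 7. The mean of probe sets gave 2 at day 7, 1 at day 10 and 3 in F minus L, and leaving out the dimmest 33.3% of genes gave 5 in F minus LF. Without strain F there were 0 at day 7, 0 at day 10 and 2 at day 10 minus 7. Without L there was 1 at day 10, without FL 1 at day 10, and without LF 0 at day 7 and 1 at day 10. Fits on the compared groups alone gave 2 at day 7, 1 within strains, 0 in FL minus F, 0 in FL minus F at day 7 and 1 in F minus L at day 7. The cause was not tested. Leaving out single arrays, or all arrays of 1 number, the counts ranged from 0 to 3 at day 7, 0 to 3 at day 10, 0 to 0 at day 10 minus 7, 0 to 4 within strains, 2 to 6 in F minus L, 0 to 1 in FL minus F, 0 to 0 in LF minus L, 3 to 8 in FL minus LF, 1 to 6 in FL minus L, 2 to 4 in F minus LF, 1 to 6 in FL minus F at day 7, 1 to 5 in F minus L at day 7, 0 to 1 over the response differences, 0 to 1 in the interaction and 0 to 1 in probe set use. The lows came mostly without number 1, 2 or 3, such as 2 in F minus L and 1 in FL minus L without number 3, and 3 in FL minus LF without number 2. The only call of a response difference (1) and 1 of the interaction came without F day 7 replicate 2. Over 35 calls of single genes, 1770 of 2007 values kept the call, 237 lost it and 0 changed sign. The 35 do not include Hspb1 in LF minus L at day 10, or Hsp90aa1 and Hsph1 in F minus LF at day 7. The 4 arrays a group limit the precision, and the Hspb1 call in FL minus F at day 7 and the 4 Dnajc12 strain calls over days held in all 52 omissions. So did the calls over days of Hspb1 and Dnajc14 in FL minus LF and of Hsp90aa1 in F minus LF. The Hspb1 call in FL minus F at day 7 was lost in the fit on the compared groups alone.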
